A study of Homo sapiens with 18 samples.

Results

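The genes examined were the death receptors and the core of the extrinsic apoptosis pathway, chosen by gene name: TNFSF10, FAS, TNFRSF10A, TNFRSF10B, TNFRSF10C, TNFRSF10D, TNFRSF1A, FADD, CASP8 and CFLAR. All 10 were found among the 26475 genes of the FPKM tables and in the count tables of 22136 genes at 2 days and 21276 genes at 7 days. They were measured by poly(A) RNA-seq in C4-2B, an androgen receptor-positive, castration-resistant human prostate cancer cell line whose genotype is labelled WT, in 18 libraries of 6 groups with 3 libraries each. At 2 days the cells received DMSO vehicle or 0.1 µM VIC-1911, an inhibitor of the mitotic kinase AURKA. At 7 days they received vehicle, 0.1 µM VIC-1911, 1 µM olaparib, which inhibits PARP, or both drugs at these doses. A single cell line was used, and no label says whether the libraries of a group came from separate cultures, so p-values measure the spread between these libraries, which may be technical.

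In the extrinsic pathway, a ligand such as TRAIL (encoded by TNFSF10) or Fas ligand binds a receptor with an intracellular death domain. The receptor recruits the adaptor FADD, which brings in procaspase-8, and active caspase-8 then cleaves effector caspases. FLIP, encoded by CFLAR, competes with caspase-8 at the adaptor, while the decoy receptors TNFRSF10C and TNFRSF10D bind TRAIL without passing on a full death signal. Several receptor genes, FAS and TNFRSF10B among them, are known targets of p53.

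The libraries held 3245273 to 7184420 counts at 2 days and 4967931 to 19684208 at 7 days, the shallowest 7-day library being replicate 1 of olaparib. All 9 prostate epithelial markers stood at 1 FPKM or more in every library, but their summed level was 4016 to 4042 FPKM in the 7-day vehicle, 2900 to 3040 with VIC-1911, 2711 to 2801 with olaparib and 2669 to 2829 with both drugs. Of 15 markers of other cell types, 13 stayed below 1 FPKM in every library, CD3E, CDH5 and DCN were listed at 0 throughout, and CD68 and COL1A1 were above 1 FPKM. The summed level of these 15 markers was 8.42 to 9.20 FPKM in the 7-day vehicle, 9.72 to 10.0 with VIC-1911, 10.6 to 12.6 with olaparib and 12 to 13.2 with both drugs. Most of that difference was CD68, a gene of macrophages and of lysosomes, at 6.40, 7.67, 9.01 and 9.76 FPKM in the group means. VWF went the other way, from 0.693 FPKM in vehicle to 0.310 with both drugs, so the sum does not describe the list as a whole. The part of either marker list in the results below was not tested. By their library names, the vehicle and VIC-1911 libraries of 7 days form one run of numbers, and the olaparib and combination libraries another. A treatment effect and a difference between these runs cannot be told apart when olaparib or the combination is compared with vehicle or VIC-1911.

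FAS lies on the plus strand at chr10:88964050-89017059 of GRCh38.p14 and overlaps ACTA2, the smooth muscle actin gene on the opposite strand. In the GENCODE annotation they share 37527 bases, of which 387 are exonic in both genes. FAS shares more exonic bases, 1899, with an lncRNA gene on the opposite strand (ENSG00000286116), and 166 with STAMBPL1 on its own strand. A RefSeq promoter window around a transcription start was available for 6 of the 10 genes. The window of the FAS start farthest downstream, chr10:88991181-88991480, shares 193 bases with a window of ACTA2. It is shown because FAS is the receptor gene with the largest change, and the capitals mark the shared bases on the FAS strand.

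FAS: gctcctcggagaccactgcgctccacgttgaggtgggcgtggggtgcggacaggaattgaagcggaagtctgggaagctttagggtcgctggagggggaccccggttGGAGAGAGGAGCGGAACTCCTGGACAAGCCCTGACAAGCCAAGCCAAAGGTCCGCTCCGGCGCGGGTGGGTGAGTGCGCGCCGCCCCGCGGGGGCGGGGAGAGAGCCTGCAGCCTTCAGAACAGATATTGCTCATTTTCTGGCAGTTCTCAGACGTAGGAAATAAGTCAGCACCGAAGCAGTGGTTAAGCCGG

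Searched on both strands, this window held 1 match to the p53 decamer motif, 1 to the NF-kB consensus and 2 to the GC box GGGCGG. Of 35114 RefSeq promoter windows, 6.63%, 11.3% and 45% hold these motifs. The 2 other FAS windows, chr10:88990548-88990847 and chr10:88990664-88990963, held 1 GC box each and no match to the p53 or NF-kB motif. The minus-strand window of TNFSF10, chr3:172523381-172523680, is shown because its RNA differed most between VIC-1911 alone and both drugs among the 10 genes. It held 1 match to TATAAA, in capitals, which 11.5% of windows hold, and no match to the other motifs.

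TNFSF10: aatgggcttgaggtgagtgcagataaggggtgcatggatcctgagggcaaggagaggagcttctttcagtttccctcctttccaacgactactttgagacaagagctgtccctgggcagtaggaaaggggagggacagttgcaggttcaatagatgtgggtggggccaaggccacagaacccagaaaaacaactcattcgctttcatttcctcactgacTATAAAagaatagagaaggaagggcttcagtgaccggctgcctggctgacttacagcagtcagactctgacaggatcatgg

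These matches describe letters only, and binding was not measured.

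The TRAIL receptor genes lie together on chromosome 8, from TNFRSF10B at chr8:23020133-23069031 through TNFRSF10C at chr8:23102921-23117445 and TNFRSF10D at chr8:23135588-23164027 to TNFRSF10A at chr8:23190452-23225102 (GRCh38.p14). CFLAR at chr2:201116164-201176687 and CASP8 at chr2:201233463-201287711 lie on the same strand of chromosome 2. FADD lies at chr11:70203296-70207390 and TNFRSF1A at chr12:6328771-6342076. Other members also share exonic bases with annotated genes: TNFRSF10B 377 with RHOBTB2, TNFRSF10A 224 with TNFRSF10A-AS1, FADD 1011 with an antisense RNA, and CFLAR 1488 with the pseudogene IMPDH1P10 and 777 with CFLAR-AS1, all on the opposite strand. On their own strand, TNFRSF10C shares 249 with a protein-coding gene and 261 with an lncRNA, CFLAR 445 and CASP8 343 with an lncRNA each. How reads there were assigned is not given in the sources used here, so these members' counts carry that uncertainty.

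Levels below are FPKM, which are read numbers scaled by gene length and library size, and fold changes come from edgeR's quasi-likelihood test on the counts. A gene is said to rise or fall where its p-value, adjusted over all genes tested by the Benjamini-Hochberg method, was under 0.05. Errors of log2 fold changes are standard errors derived from the F statistic. The 7-day treatments were compared with the same 3 vehicle libraries.

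**Figure D1:**
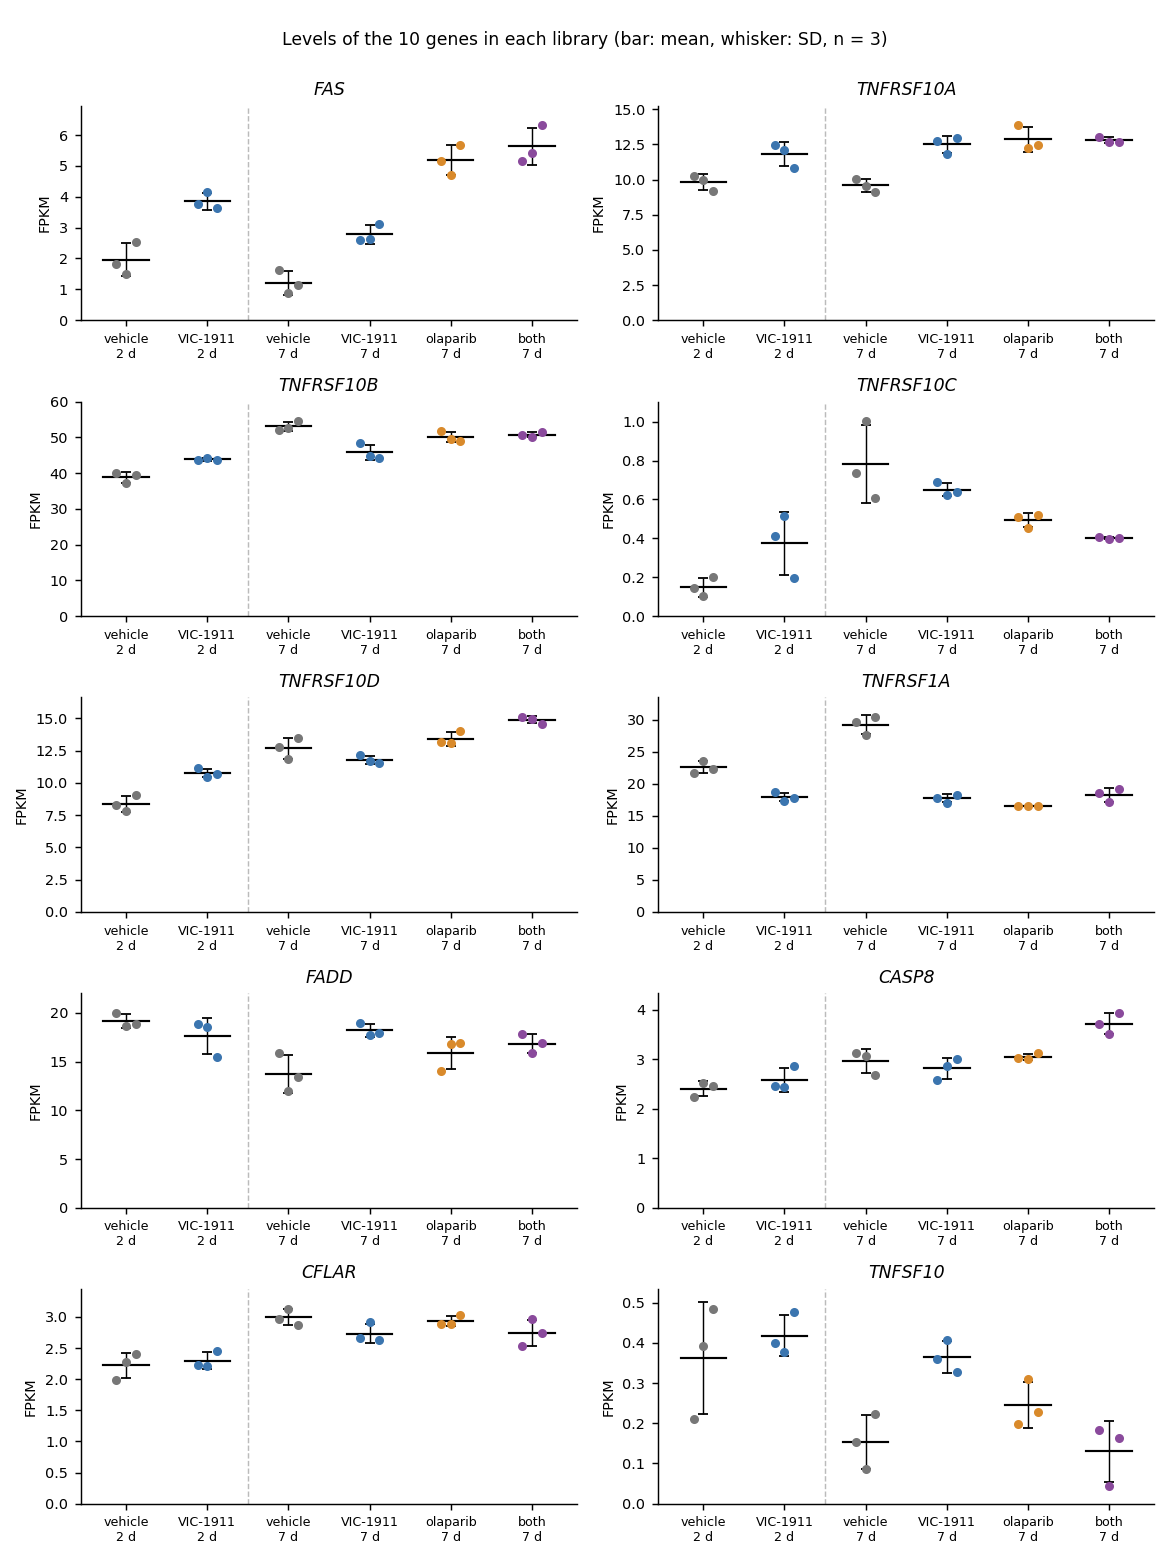
FPKM of the 10 genes in each of the 18 libraries, by group, with 1 panel per gene and its own axis from 0. Points are libraries, bars are means and whiskers are SD (n = 3). FAS in the vehicle libraries of 7 days lies below every treated library, and TNFRSF1A lies above them.

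With VIC-1911 at 2 days, FAS, TNFRSF10D and TNFRSF10B rose and TNFRSF1A fell. That is 3 of 9 tested members higher and 1 lower, where 7.5% and 7.19% of all 12241 genes were called higher and lower. Their median log2 fold change was 0.19, against -0.0034 over all genes tested. With VIC-1911 at 7 days, 4 members rose (FAS, TNFSF10, FADD and TNFRSF10A) and 4 fell (TNFRSF1A, TNFRSF10B, CFLAR and TNFRSF10D). Among 14409 genes 26.6% were higher and 25.8% lower. With olaparib 3 rose (FAS, FADD and TNFRSF10A) and 2 fell (TNFRSF1A and TNFRSF10C), against 28.1% and 25.9% of all genes. With both drugs 5 rose (FAS, TNFRSF10A, CASP8, FADD and TNFRSF10D) and 2 fell (TNFRSF1A and TNFRSF10C), against 28.6% and 28%. The members' median log2 fold changes at 7 days were -0.14 with VIC-1911, 0.044 with olaparib and 0.13 with both drugs. Over all genes they were -0.0053, 0.010 and 0.0047. At 7 days more than 1 in 2 genes passed the test in each comparison with vehicle, so the calls were also counted with a limit on the fold change.

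With a limit of 1.5-fold, FAS was the 1 member higher at 2 days, where 0.825% of all genes were higher and 1.33% lower. At 7 days the limit was 2-fold. FAS and TNFSF10 were higher with VIC-1911 (3.46% of all genes higher, 3.43% lower), and FAS with olaparib (3.63% and 3.53%). With both drugs FAS was higher and TNFRSF10C lower (4.55% and 4%). Against VIC-1911, the combination was higher for FAS and lower for TNFSF10 (2.23% and 1.82%). In the interaction of the drugs described below, FAS and TNFSF10 passed, both lower (4.33% and 4.16%). The largest called changes stayed under the limit for the combination against olaparib (CASP8, 0.30 on the log2 scale; 0.291% and 0.0902%), for olaparib against VIC-1911 (FAS, 0.92; 0.895% and 0.555%) and for the effect of VIC-1911 between the times (TNFRSF10D, -0.56; 2.82% and 1.76%).

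**Figure D2:**
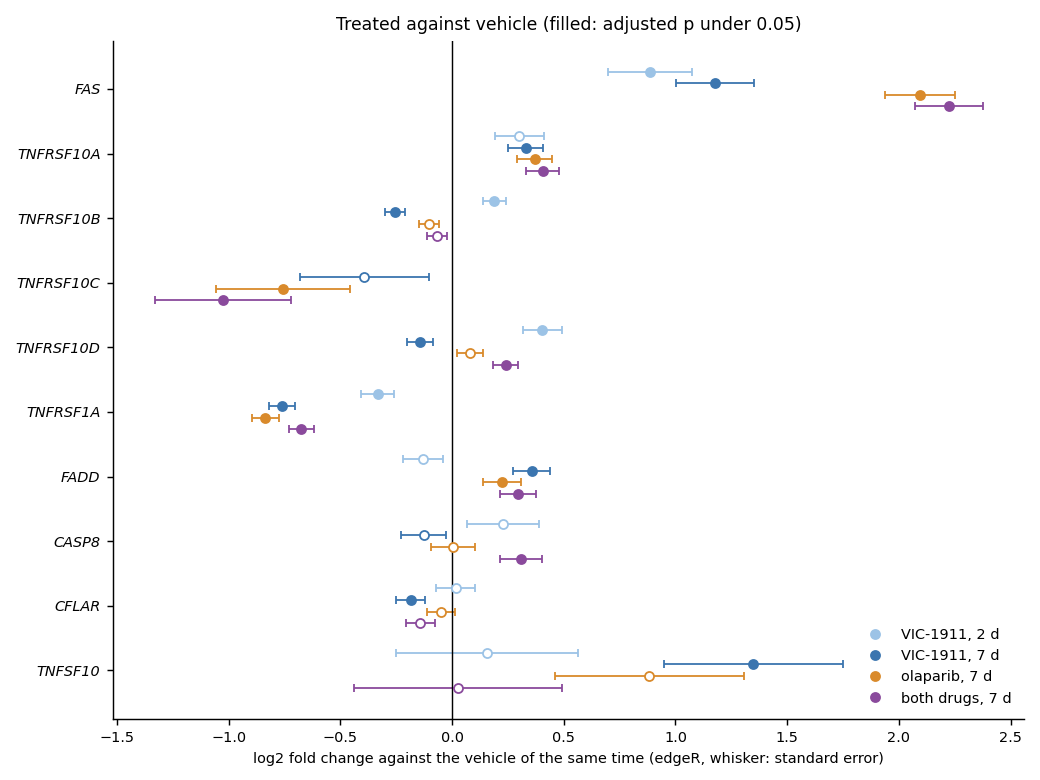
Log2 fold change of each gene against the vehicle of the same time (x axis), for 4 treatments, from edgeR. Whiskers are standard errors, and filled points have an adjusted p-value under 0.05. FAS reaches 2.22 with both drugs and TNFRSF1A -0.84 with olaparib. TNFRSF10C was not tested at 2 days.

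TNFSF10 encodes TRAIL, the ligand of the TNFRSF10 receptors. Its RNA was scarce: 0.154, 0.0863 and 0.222 FPKM in the vehicle libraries of 7 days, 0.361, 0.406 and 0.327 with VIC-1911, 0.199, 0.310 and 0.229 with olaparib, and 0.184, 0.0431 and 0.164 with both drugs. The VIC-1911 libraries lay above all others, while the combination libraries overlapped the vehicle. These levels rest on 2 to 21 counts per library. TNFSF10 rose with VIC-1911 by 1.35 ± 0.40 on the log2 scale (adjusted p = 0.0056), and was lower with both drugs than with VIC-1911 by a log2 fold change of -1.32 ± 0.38 (adjusted p = 0.0060). Without vehicle replicate 2 the rise was 0.97 and missed the threshold (adjusted p = 0.074). For olaparib the value was 0.88 ± 0.42 (adjusted p = 0.078), and at 2 days the groups overlapped.

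FAS encodes the receptor of Fas ligand, whose own gene FASLG was listed at 0 FPKM in every library. FAS stood at 1.83, 1.51 and 2.54 FPKM in the 2-day vehicle and at 3.78, 4.16 and 3.62 with VIC-1911. At 7 days it stood at 1.61, 0.869 and 1.14 FPKM in vehicle, 2.59, 2.62 and 3.13 with VIC-1911, 5.17, 4.70 and 5.69 with olaparib and 5.16, 5.41 and 6.32 with both drugs. Every treated library was above every vehicle library of its time, and only the olaparib and combination groups overlapped each other. The log2 fold change was 0.89 ± 0.19 at 2 days (adjusted p = 0.00099), and at 7 days 1.18 ± 0.17 with VIC-1911 (adjusted p = 1.3e-06), 2.09 ± 0.16 with olaparib (adjusted p = 2.3e-12) and 2.22 ± 0.15 with both drugs (adjusted p = 2.6e-13).

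The 7-day levels of FAS thus ran from vehicle through VIC-1911 to olaparib and the combination. Olaparib exceeded VIC-1911 by 0.92 ± 0.13 (adjusted p = 7.4e-06), a comparison added after the values were seen in which TNFRSF10B and TNFRSF10D were also higher (11.1% of all genes higher, 12.3% lower), and the combination exceeded VIC-1911 by 1.05 ± 0.13 (adjusted p = 1.5e-07). The last neighbours did not differ beyond their spread: the combination less olaparib was 0.13, with a 95% interval from -0.10 to 0.36. Between the times, the effect of VIC-1911 was higher at 7 days for 1 member, FADD, and lower for TNFRSF1A, TNFRSF10B and TNFRSF10D (14.6% of all genes higher, 14.2% lower). For FAS, the effect at 7 days less that at 2 days was 0.27, with an interval from -0.28 to 0.82.

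ACTA2 moved with FAS in most groups. It rose by 1.61 ± 0.33 at 2 days (adjusted p = 0.00060), 2.41 ± 0.31 with olaparib (adjusted p = 1.1e-07) and 2.94 ± 0.28 with both drugs (adjusted p = 4.1e-10). With VIC-1911 at 7 days its groups overlapped and the value was 0.65 ± 0.39 (adjusted p = 0.17), whereas FAS rose. FAS had 4.13 times the summed counts of ACTA2 over the 18 libraries. ACTA2 had 5 to 8 counts per library in the 2-day vehicle and 2 to 18 in the 7-day vehicle. Its values with libraries left out or by other fits are not given here. Whether the counting used the strand is not given in the sources used here, so reads in the exonic bases that FAS shares with ACTA2 or with the other overlapping genes cannot be told apart.

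**Figure D3:**
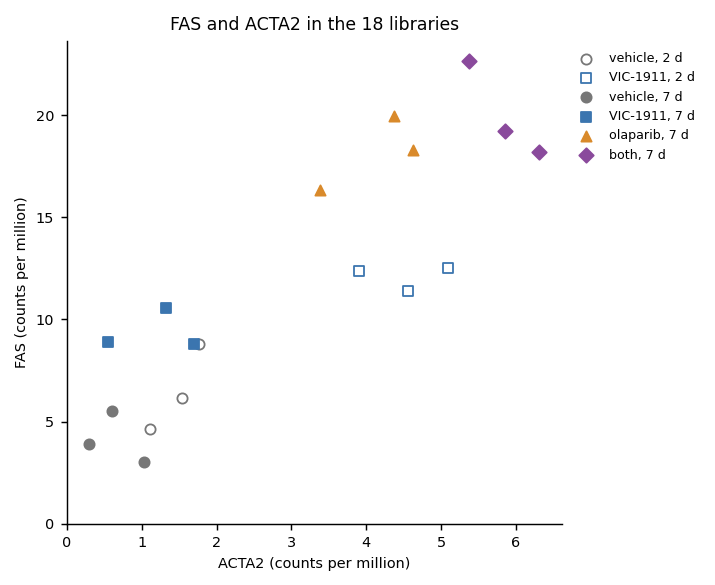
CPM (counts scaled by library size) of FAS (y axis) against ACTA2 (x axis) in the 18 libraries, by group. Open symbols are 2 days and filled symbols 7 days. The olaparib and combination libraries are highest in FAS, and the VIC-1911 libraries of 7 days are low in ACTA2 while above the vehicle in FAS.

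TNFRSF10B (DR5) and TNFRSF10A (DR4) are the TRAIL receptors with a death domain. TNFRSF10B stood at 40.1, 37.2 and 39.5 FPKM in the 2-day vehicle and at 43.8, 44.2 and 43.6 with VIC-1911. At 7 days it stood at 52.1, 52.6 and 54.6 FPKM in vehicle and at 48.3, 44.8 and 44.4 with VIC-1911, the groups being separate at both times but in opposite order. It rose by 0.19 ± 0.05 at 2 days (adjusted p = 0.010) and fell by 0.26 ± 0.04 on the log2 scale at 7 days (adjusted p = 1.6e-05). The change between the times was itself past the threshold, at -0.46 ± 0.07 (adjusted p = 8.0e-07). The rise at 2 days was 0.14 and missed the threshold without vehicle replicate 2 (adjusted p = 0.079). Olaparib and combination libraries held 49.1 to 51.7 FPKM, all below the vehicle libraries, and neither treatment passed the test against vehicle (adjusted p = 0.056 and 0.21). Without vehicle replicate 1 or olaparib replicate 1, TNFRSF10B was lower with olaparib (adjusted p = 0.029 and 0.036), as it was by DESeq2 (adjusted p = 0.037) and in an edgeR fit of the compared groups alone (adjusted p = 0.028).

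TNFRSF10A stood at 10.1, 9.57 and 9.13 FPKM in the 7-day vehicle. It stood at 12.8, 11.8 and 12.9 with VIC-1911, 13.9, 12.2 and 12.5 with olaparib, and 13.1, 12.7 and 12.7 with both drugs. Every treated library was above the vehicle, and the 3 treatments overlapped each other. The rises were 0.33 ± 0.08 with VIC-1911 (adjusted p = 0.00066), 0.37 ± 0.08 with olaparib (adjusted p = 0.00018) and 0.41 ± 0.08 with both drugs (adjusted p = 3.8e-05). At 2 days the value was 0.30 ± 0.11 (adjusted p = 0.058), and it passed by limma on log2 FPKM (adjusted p = 0.046 and 0.048 for the smaller and larger pseudocount).

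TNFRSF10D (DcR2) is a decoy with a truncated death domain. It stood at 8.25, 7.83 and 9.04 FPKM in the 2-day vehicle and at 11.1, 10.5 and 10.7 with VIC-1911, a rise of 0.40 ± 0.09 (adjusted p = 0.0012). Its 7-day levels were 12.8, 11.8 and 13.4 FPKM in vehicle, 12.1, 11.7 and 11.5 with VIC-1911, 13.1, 13.1 and 14 with olaparib, and 15.1, 15.0 and 14.6 with both drugs. The combination libraries lay above all other 7-day libraries. Against vehicle they were higher by 0.24 ± 0.06 (adjusted p = 0.00074), and against VIC-1911 by 0.38 ± 0.06 (adjusted p = 3.4e-06). The fall with VIC-1911 at 7 days, by 0.14 ± 0.06 on the log2 scale, was just inside the threshold (adjusted p = 0.045). It missed the threshold without vehicle replicate 1 or 3, or VIC-1911 replicate 2 or 3 (adjusted p between 0.068 and 0.14). The same held by DESeq2 (adjusted p = 0.077) and by limma with either pseudocount (adjusted p = 0.12 for each). The call was also lost without the filter on counts (adjusted p = 0.11) and without scaling beyond library size (adjusted p = 0.089). The effect of VIC-1911 at 7 days was below that at 2 days by -0.56 ± 0.11 (adjusted p = 5.4e-05).

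TNFRSF10C (DcR1), a decoy anchored to the membrane by a lipid, was the scarcest receptor. At 2 days it had 1, 1 and 2 counts in vehicle and 7, 5 and 2 with VIC-1911, too few to be tested. Its 7-day levels were 0.735, 1.00 and 0.607 FPKM in vehicle, 0.688, 0.625 and 0.637 with VIC-1911, 0.511, 0.453 and 0.521 with olaparib and 0.407, 0.398 and 0.404 with both drugs. Olaparib and combination libraries lay below every vehicle library. It fell by 0.76 ± 0.30 on the log2 scale with olaparib (adjusted p = 0.034) and by 1.03 ± 0.31 with both drugs (adjusted p = 0.0052), from 5 to 34 counts per library. Both calls were lost without vehicle replicate 2 (adjusted p = 0.25 and 0.076), and the olaparib call also without olaparib replicate 2 or 3 (adjusted p = 0.12 and 0.068), without the filter on counts (adjusted p = 0.081) and by DESeq2 (adjusted p = 0.13).

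Per length, TNFRSF10B made up 64.4% to 69.7% of the summed TRAIL receptor FPKM in the group means. The share of TNFRSF10A was 12.6% ± 0.80 (SD, n = 3) in the 7-day vehicle and 17.7% ± 0.80 with VIC-1911. It was 16.7% ± 0.70 with olaparib and 16.2% ± 0.22 with both drugs. At 2 days it was 17.2% ± 1.17 in vehicle and 17.7% ± 0.93 with VIC-1911. The share of TNFRSF10A was not tested. The share of the decoys was 14.9% ± 0.94 (SD, n = 3) in the 2-day vehicle and 16.7% ± 0.34 with VIC-1911. The 7-day share was 17.7% ± 0.50 in vehicle, 17.5% ± 0.25 with VIC-1911, 18.1% ± 0.96 with olaparib and 19.4% ± 0.42 with both drugs. VIC-1911 at 2 days and both drugs gave an exact two-sided permutation p of 0.1 against vehicle. That is the smallest that 3 against 3 libraries allow, and 0.27 after adjustment over 8 tests. By the same test, VIC-1911 and olaparib at 7 days gave p of 0.7 and 0.6.

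**Figure D4:**
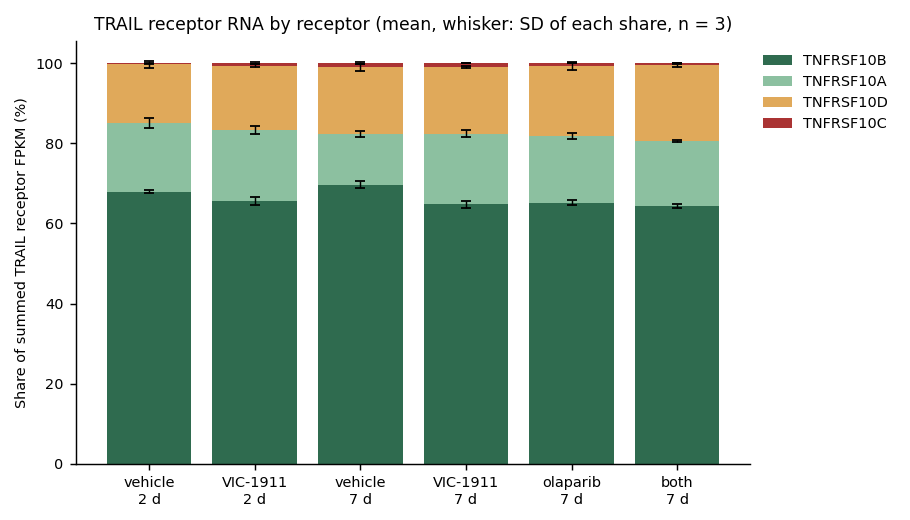
Share of each receptor in the summed FPKM of the 4 TRAIL receptors (y axis, percent) in the 6 groups. Segments are means of 3 libraries and whiskers the SD of each segment's share. TNFRSF10B holds 64.4% or more in every group, and TNFRSF10C 1.03% or less.

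TNFRSF1A encodes TNF receptor 1, which signals through TRADD to NF-kB and, in another complex, to FADD and caspase-8. It stood at 21.8, 23.6 and 22.4 FPKM in the 2-day vehicle and at 18.7, 17.4 and 17.7 with VIC-1911. At 7 days it stood at 29.7, 27.6 and 30.4 FPKM in vehicle, 17.9, 17.1 and 18.3 with VIC-1911, 16.6, 16.5 and 16.6 with olaparib, and 18.5, 17.1 and 19.1 with both drugs. All treated libraries were below all vehicle libraries of their time. The log2 fold change was -0.33 ± 0.07 at 2 days (adjusted p = 0.0015). At 7 days it was -0.76 ± 0.06 with VIC-1911 (adjusted p = 5.0e-12), -0.84 ± 0.06 with olaparib (adjusted p = 7.3e-13) and -0.67 ± 0.06 with both drugs (adjusted p = 3.1e-11). The effect of VIC-1911 was larger at 7 days, by -0.44 ± 0.09 (adjusted p = 0.00022). The genes of its ligands TNF and lymphotoxin, TNF, LTA and LTB, stayed at or below 0.034 FPKM in every library.

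FADD, the adaptor, stood at 15.9, 12 and 13.5 FPKM in the 7-day vehicle, 19.0, 17.7 and 17.9 with VIC-1911, 14, 16.8 and 16.9 with olaparib and 17.8, 15.9 and 16.9 with both drugs. The VIC-1911 libraries were above the vehicle, and olaparib overlapped it. It rose by 0.36 ± 0.08 with VIC-1911 (adjusted p = 0.00059), 0.30 ± 0.08 with both drugs (adjusted p = 0.0028) and 0.22 ± 0.08 with olaparib (adjusted p = 0.025). Without vehicle replicate 2 the combination call was lost (0.17, adjusted p = 0.10), and so was that of olaparib (0.095, adjusted p = 0.39). The olaparib call was also lost without vehicle replicate 3 or olaparib replicate 2 or 3 (adjusted p between 0.073 and 0.13), by DESeq2 (adjusted p = 0.070) and by limma (adjusted p = 0.080 and 0.083). At 2 days FADD stood at 20.0, 18.7 and 18.8 FPKM in vehicle and 18.9, 18.5 and 15.5 with VIC-1911. The 2-day value was -0.13 ± 0.09 (adjusted p = 0.36), and the effect of VIC-1911 at 7 days exceeded it by 0.47 ± 0.13 (adjusted p = 0.0031).

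CASP8, the initiator caspase, stood at 3.13, 3.06 and 2.68 FPKM in the 7-day vehicle, 2.58, 2.87 and 3 with VIC-1911, 3.02, 3 and 3.12 with olaparib and 3.72, 3.50 and 3.93 with both drugs. Neither single drug changed it past the threshold, and the combination libraries lay above all others. The combination exceeded vehicle by 0.31 ± 0.09 (adjusted p = 0.0062), VIC-1911 by 0.44 ± 0.10 (adjusted p = 0.00045) and olaparib by 0.30 ± 0.09 (adjusted p = 0.032). CASP8 was the 1 member called between the combination and olaparib, where 4.55% of all genes were higher and 6.95% lower. That call was lost when any olaparib library, or combination replicate 1 or 3, was left out, with an adjusted p between 0.059 and 0.15. It was also lost by DESeq2 (adjusted p = 0.077), by limma (adjusted p = 0.081 and 0.072) and without the filter on counts (adjusted p = 0.056). Against VIC-1911 the combination was higher for 4 members (FAS, CASP8, TNFRSF10B and TNFRSF10D) and lower for TNFSF10, where 20.7% and 22.2% of all genes were called.

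CFLAR, the inhibitor, stood at 2.97, 3.13 and 2.88 FPKM in the 7-day vehicle, 2.66, 2.91 and 2.63 with VIC-1911, 2.89, 2.89 and 3.03 with olaparib and 2.53, 2.96 and 2.74 with both drugs. All groups overlapped. The fall with VIC-1911, by 0.18 ± 0.06 on the log2 scale (adjusted p = 0.017), was lost without vehicle replicate 2, VIC-1911 replicate 1 or VIC-1911 replicate 3 (adjusted p between 0.059 and 0.095), and by limma (adjusted p = 0.23 and 0.22). With both drugs the log2 fold change was -0.14 (adjusted p = 0.057), and it passed the threshold without vehicle replicate 1 or 3, or combination replicate 2 (adjusted p between 0.012 and 0.046). The level of CFLAR relative to other genes depends on the 20.6 kb of length that its FPKM implies, against 4.71 kb for CASP8. The log2 ratio of CFLAR to CASP8 was 0.02 ± 0.09 (SD, n = 3) in vehicle and -0.44 ± 0.17 with both drugs, a difference of -0.46 (exact two-sided permutation p = 0.1, and 0.27 after adjustment).

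The design also allowed a test of whether VIC-1911 acted alike with and without olaparib at 7 days. The interaction, which is the combination less olaparib minus VIC-1911 less vehicle, sets differences within each run of library numbers against each other. It was higher for 4 members and lower for 4, where 21% and 22.9% of all genes were called. FAS rose with VIC-1911 alone and not on top of olaparib, an interaction of -1.05 ± 0.21 (adjusted p = 0.00016). TNFRSF1A fell with VIC-1911 alone and was 0.16 ± 0.06 higher on top of olaparib (adjusted p = 0.084), an interaction of 0.92 ± 0.08 (adjusted p = 3.6e-10). TNFSF10 had the largest value, -2.20 ± 0.57 (adjusted p = 0.0023).

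The other 5 interactions were smaller. They were 0.43 ± 0.14 for CASP8 (adjusted p = 0.012), 0.30 ± 0.08 for TNFRSF10D (adjusted p = 0.0037) and 0.29 ± 0.06 for TNFRSF10B (adjusted p = 0.00035). TNFRSF10A and FADD had -0.29 ± 0.11 (adjusted p = 0.025) and -0.28 ± 0.12 (adjusted p = 0.045). The FADD call was lost without any of 9 of the 12 libraries, with an adjusted p of up to 0.30, and the TNFRSF10A call without vehicle replicate 2 or 3, VIC-1911 replicate 3 or olaparib replicate 1 (adjusted p between 0.053 and 0.070). By DESeq2 both calls were lost (adjusted p = 0.099 and 0.069). TNFRSF10C and CFLAR did not pass.

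**Figure D5:**
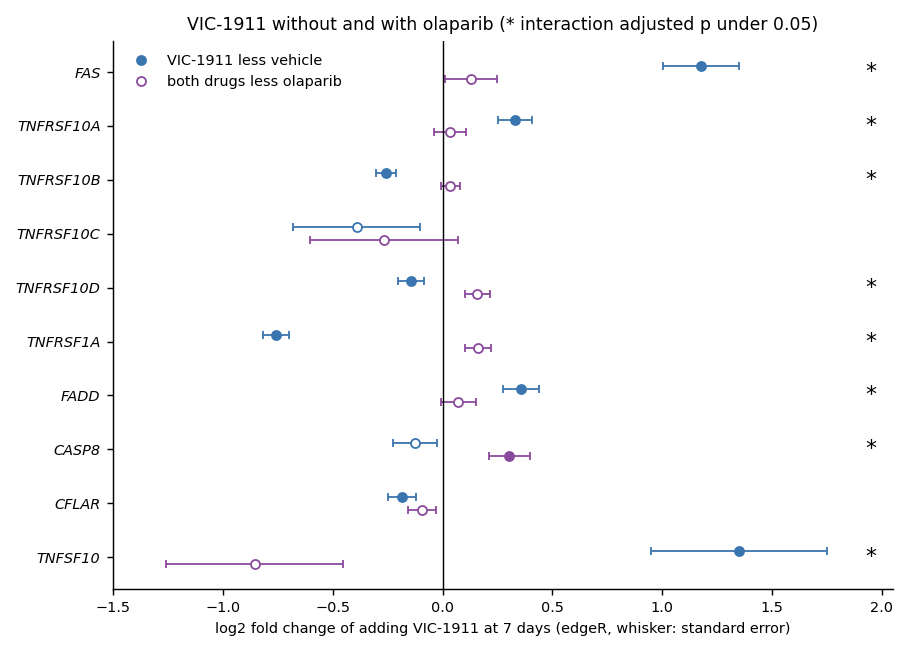
Log2 fold change of adding VIC-1911 at 7 days (x axis) to vehicle and to olaparib, for each gene, from edgeR. Whiskers are standard errors, filled points have an adjusted p-value under 0.05, and asterisks mark an interaction under 0.05. FAS and TNFRSF1A stand at 1.18 and -0.76 without olaparib and at 0.13 and 0.16 with it.

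Around these 10 genes, a list of 35 further genes of the pathway held 25 that were tested. With VIC-1911 at 2 days 1 was lower, RBCK1, where 7.19% of all genes were lower. At 7 days 8 were higher and 5 lower with VIC-1911, 10 higher and 3 lower with olaparib, and 11 higher and 2 lower with both drugs. Over all genes, 26.6% were higher and 25.8% lower with VIC-1911, 28.1% and 25.9% with olaparib, and 28.6% and 28% with both drugs. The median log2 fold changes of the 25 genes at 7 days were 0.098, 0.16 and 0.083, against -0.0053, 0.010 and 0.0047 over all genes. At 2 days their median was -0.047, against -0.0034 over all genes.

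Among the inhibitors, RBCK1, a subunit of the linear ubiquitin ligase of the TNF receptor complex, fell with each treatment. Its 7-day level was 48.7 ± 1.87 FPKM in vehicle (SD, n = 3), 24.8 ± 2.36 with VIC-1911, 24.1 ± 1.42 with olaparib and 25.8 ± 0.78 with both drugs, with log2 fold changes of -1.01, -1.02 and -0.92. MLKL, the effector of necroptosis, rose with VIC-1911 at 7 days (log2 fold change 1.00, adjusted p = 4.2e-06). It went from 1.19 ± 0.10 FPKM in vehicle to 2.42 ± 0.18. With olaparib it rose to 1.83 ± 0.24 FPKM (log2 fold change 0.57, adjusted p = 0.0047). With both drugs it stood at 1.19 ± 0.18. The 2-day level of MLKL was 2.96 ± 0.62 FPKM in vehicle and 2.82 ± 0.12 with VIC-1911, and it was not called there. RIPK3, another gene of the list, was listed at 0 FPKM in every library. BIRC3 and TNFAIP3, of the inhibitors, rose with olaparib by 0.71 and 1.01 (adjusted p = 0.034 and 0.036). With both drugs they rose by 1.35 and 1.45 (adjusted p = 4.7e-05 and 0.0016). Their levels in vehicle were 0.136 and 0.0920 FPKM, where TNFAIP3 was listed at 0 in 1 library. At 7 days BIRC3 had 6 to 57 counts per library and TNFAIP3 0 to 44. For the genes of this list, fits with libraries left out are not given here. TNFSF15, the ligand of the receptor DR3, rose with olaparib by 0.76 and with both drugs by 1.21.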

How the data were processed

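C4-2B poly(A) RNA was sequenced in 18 libraries. Per the labels and the study's methods, the authors trimmed reads with Trimmomatic, aligned them with STAR (2.6.0 in the submitters' processing notes) to hg38, deposited raw counts per gene, and computed the deposited FPKM values with an in-house script. The kits differ between labels and methods, and strand use is not given in the sources used here. At 2 days the FPKM values may not rest on the same reads as the counts, and their read numbers are not given. Relative to the median gene, the 2-day ratio of FPKM to count was 0.92 to 1.06 for the members except TNFRSF10C, which had too few counts.

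Groups came from the labels. The count model was edgeR's quasi-likelihood fit (version 4.0.16, under R 4.3.3) with TMM factors. A gene entered where 3 or more libraries of the fit held 10 or more counts, which left 12241 genes at 2 days, 14409 at 7 days and 13832 across times. The scripts were tested on simulated data. There DESeq2 missed part of the genes changed 1.5-fold at 2 days, with the direction correct for all. The recovery required to pass was then limited to genes changed 2-fold, so the test does not vouch for smaller changes. Alternatives used DESeq2 1.42.0, limma 3.58.1 on log2(FPKM + 0.1) or log2(FPKM + 1), other scalings and filters, a fold limit of 1.5 at 2 days or 2 at 7 days, and each library left out. The members, gene lists and tests were chosen with earlier results of these data known. By a fixed rule, the genes named with results beside the 10 members are ACTA2, up to 3 pathway genes per comparison and direction called at 1.5-fold or more against vehicle, and the 3 genes most correlated with FAS and with TNFSF10. FASLG, TNF, LTA and LTB, as ligands of the receptors, and RIPK3 were chosen after their values were seen. So were RBCK1 at 2 days, MLKL at 2 days and with olaparib, and the cell type markers named. Genes that overlap a member were taken from the GENCODE annotation.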

Additional observations from a re-analysis of the deposited data

Results flagged for a closer look

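The effect of VIC-1911 at 7 days differed with and without olaparib, by the interaction test of edgeR, for 8 of the 10 genes. The log2 values were -1.05 for FAS, -0.28 for FADD, 0.92 for TNFRSF1A, 0.43 for CASP8, -2.20 for TNFSF10, 0.29 for TNFRSF10B, 0.30 for TNFRSF10D and -0.29 for TNFRSF10A. Of all genes tested, 21% were higher and 22.9% lower in the same test.

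The effect of VIC-1911 differed between 7 and 2 days for 4 genes, with log2 values, as 7 days less 2 days, of 0.47 for FADD, -0.44 for TNFRSF1A, -0.46 for TNFRSF10B and -0.56 for TNFRSF10D. Of all genes tested, 14.6% were higher and 14.2% lower. The 2 times were deposited as separate tables, and each effect is a difference within 1 table.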

How the results depend on the processing

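No called log2 fold change of a member changed sign under any alternative. Of 1332 recomputed values, 1230 kept direction and side of the threshold, 61 lost the call, 15 gained one and 26 changed sign, all 26 without a call in either fit. The cause of these changes was not tested, apart from the fold limit, which only removes smaller changes. With the fold limit, the members called higher and lower fell to 1 and 0 for VIC-1911 at 2 days, 2 and 0 at 7 days, 1 and 0 for olaparib, 1 and 1 for both drugs, 0 higher for the combination against olaparib, 1 higher against VIC-1911, 0 and 2 for the interaction, 0 higher for olaparib against VIC-1911, and 0 and 0 for 7 less 2 days. The lower count for VIC-1911 at 7 days was 2 by limma with either pseudocount, that of olaparib was 1 without the filter and stayed 2 by DESeq2 with TNFRSF10B in place of TNFRSF10C, that of the combination against VIC-1911 was 2 by limma, and that of the interaction was 2 by DESeq2. The combination against olaparib had 2 higher with upper-quartile scaling and 0 without the filter, by DESeq2 and by limma.

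Leaving out single libraries gave, higher and lower, 2 to 3 and 1 for VIC-1911 at 2 days, 3 to 4 and 2 to 3 at 7 days, 2 to 3 and 1 to 3 for olaparib, 4 to 5 and 1 to 3 for both drugs, 0 to 2 higher for the combination against olaparib, and 4 and 2 to 4 for the interaction. The replicate numbers did not pair the libraries: deviations of libraries with the same number correlated at a median of 0.0015 at 2 days and 0.017 at 7 days. With the replicate block, 3 members instead of 2 were lower with both drugs, CFLAR being added, and no other count changed.

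The values that changed sign were, for CFLAR with VIC-1911 at 2 days, -0.0057 with upper-quartile scaling and -0.055 to 0.060 over left-out libraries. For CASP8 with olaparib they were -0.0069 with the block, -0.0012 by DESeq2, -0.0070 in the fit of the compared groups alone and -0.051 to 0.029 over left-out libraries. For TNFSF10 with both drugs they were -0.056 by DESeq2, -0.17 and -0.030 by limma, and -0.34 to 0.35 over left-out libraries. For TNFRSF10A, combination against olaparib, they were -0.0039 and -0.0037 by limma and -0.0014 to 0.071 over left-out libraries. The interaction of TNFRSF10C was -0.031 by limma with the smaller pseudocount and -0.11 to 0.23 over left-out libraries. Leaving out libraries alone turned TNFSF10 with VIC-1911 at 2 days (-0.037 to 0.26), CFLAR in the combination against VIC-1911 (-0.0091 to 0.11), and the 7 less 2 day values of FAS (-0.042 to 0.63) and TNFRSF10A (-0.034 to 0.079). The log2 ratio of CFLAR to CASP8 with VIC-1911 at 2 days was -0.23 less than vehicle from counts, against -0.05 from FPKM. In olaparib against VIC-1911, the TNFRSF10B call was lost without VIC-1911 replicate 2 or 3 or olaparib replicate 1, and that of TNFRSF10D without olaparib replicate 3. Low counts limit TNFSF10 and TNFRSF10C, which were under 40 in every library. FAS, CASP8 and ACTA2 were also under 40 in some libraries, with lowest counts of 20, 28 and 2.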

Other observations

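Over the 12 libraries of 7 days, the 3 of 12107 genes whose log2 CPM followed FAS most closely were SERPIND1, THBS1 and EXOSC7, with Pearson r of 0.988, 0.986 and 0.984. THBS1, which encodes thrombospondin-1, averaged 8.97 FPKM in vehicle, 23.3 with VIC-1911, 52.2 with olaparib and 56.7 with both drugs. For TNFSF10 they were AGPAT5, PPP1R14C and SRSF7, with r of 0.940, 0.889 and 0.888. AGPAT5 averaged 8.40 FPKM in vehicle, 10.8 with VIC-1911, 9.49 with olaparib and 7.98 with both drugs. These values describe likeness across libraries that share groups and depth, and were not tested.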
